A study of Mus musculus and Acomys cahirinus with 18 samples.

Results

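Smooth muscle and myofibroblast cytoskeleton genes were followed in the obstructed kidney of the laboratory mouse (Mus musculus) and of the spiny mouse (Acomys cahirinus). The set held 10 genes picked by symbol, Acta2, Actg2, Tagln, Cnn1, Cnn2, Myl9, Tpm2, Tpm4, Vim and Thy1, and looked up in 4 deposited comparison tables. Thy1 encodes a surface glycoprotein and not a cytoskeleton protein, but is counted with the set throughout. Of the 10, 9 were listed in at least 1 table, among 6385 distinct symbols in all, and 5 (Acta2, Tagln, Tpm2, Tpm4 and Vim) in all 4, while Cnn1 was listed in none. In unilateral ureteral obstruction the left ureter is closed, so that urine backs up and the whole kidney is injured. Adult males were used throughout: wild-type mice of the strain C57BL/6 and wild-type Acomys, for which the labels give no strain. Sham-operated controls, kidneys at day 2 and kidneys at day 5 after obstruction gave 3 libraries each in either species. Mice were aged 7 to 14 weeks (sham), 10.1 weeks (day 2) and 10.1 to 14 weeks (day 5). Acomys were aged 9.9 to 14.3 weeks (sham), 10.3 to 14.3 weeks (day 2) and 9.9 to 10.4 weeks (day 5). The labels do not say outright that each library is a separate animal, so the p-values measure the spread between these libraries.

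Smooth muscle cells and myofibroblasts, the contractile matrix-producing cells of scars, pull on their surroundings with bundles of actin filaments. Smooth muscle actins build the filament, tropomyosins lie along it, calponins and transgelin bind it, and myosin, switched by its regulatory light chain, slides along it. In kidney fibrosis, pericytes and fibroblasts that switch on smooth muscle actin are the usual definition of the myofibroblast, whereas the resting kidney carries smooth muscle actin mainly in its arteries. Many of these genes are controlled by serum response factor (SRF) through a DNA element called the CArG box.

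The tables hold the authors' own comparison of each obstructed group with its own species' sham libraries: a log fold change, read as log2, a mean expression over the libraries of the fit (log2 CPM, a depth-scaled count, here logCPM) and a false discovery rate (FDR, the adjusted p-value). They list only entries at FDR under 0.05. Neither values per library nor read totals could be used here, so sample-level values and depth are unknown. Absence from a table can mean no change, too much spread or no test. The kidney was recognisable by its tubule markers, with a mean logCPM of 12.01 for the phosphate transporter gene Slc34a1 in mouse and 10.17 for uromodulin, Umod, in Acomys in the authors' deposited tables. These markers themselves fell: of the 7 fixed, 5 fell in mouse on each day, 0 in Acomys on day 2 and 4 in Acomys on day 5, and none rose. Among all listed entries, falls numbered 1633 of 3915 on mouse day 2 and 2096 of 5365 on mouse day 5. They numbered 178 of 1765 on Acomys day 2 and 536 of 2500 on Acomys day 5. Few falls of any gene were thus listed on Acomys day 2, and the 0 there does not show unchanged tubule markers. The RNA is from whole kidney, where more cells of a type and more RNA per cell cannot be told apart.

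Every member that was listed had risen, in each species and on each day. On mouse day 2, 7 of the 10 genes were listed and all 7 rose, where 58.3% of listed entries were rises. Their median log2 fold change was 2.05 against 1.03 over the whole table. By mouse day 5 all 9 listed members rose (60.9% of listed entries were rises), with a median of 2.24 against 1.14. In Acomys 6 of the 10 were listed on each day. All 6 rose on day 2 (89.9% of listed entries were rises), with a median of 1.85 against 1.99. All 6 rose on day 5 (78.6% of listed entries were rises), with a median of 1.76 against 1.95. The share of all measured genes that were listed is unknown, so counts out of the 10 have no background beside them. Rises predominated in the Acomys tables as a whole, so the direction of the members there is close to that background. The table medians above include falls, which were a larger share of the mouse tables. Over rises alone the median was 1.70 and 1.89 on mouse days 2 and 5 and 2.15 and 2.27 on Acomys days 2 and 5. Of the listed members, 6 of 7 lay above this median rise on mouse day 2 and 7 of 9 on mouse day 5. In Acomys 2 of 6 and 1 of 6 did so. The smallest changes listed were 0.73 and 0.72 on mouse days 2 and 5 and 0.95 and 0.93 on Acomys days 2 and 5, so small rises could appear in the mouse tables only. At FDR under 0.01, a mark passed by 73.4% of mouse day 2, 78.6% of mouse day 5, 54.6% of Acomys day 2 and 47.6% of Acomys day 5 entries, the members numbered 7, 8, 6 and 4 in that order. At FDR under 0.001, passed by 49.5%, 54.1%, 23.9% and 16.0% of entries, they numbered 6, 7, 5 and 3.

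**Figure D1:**
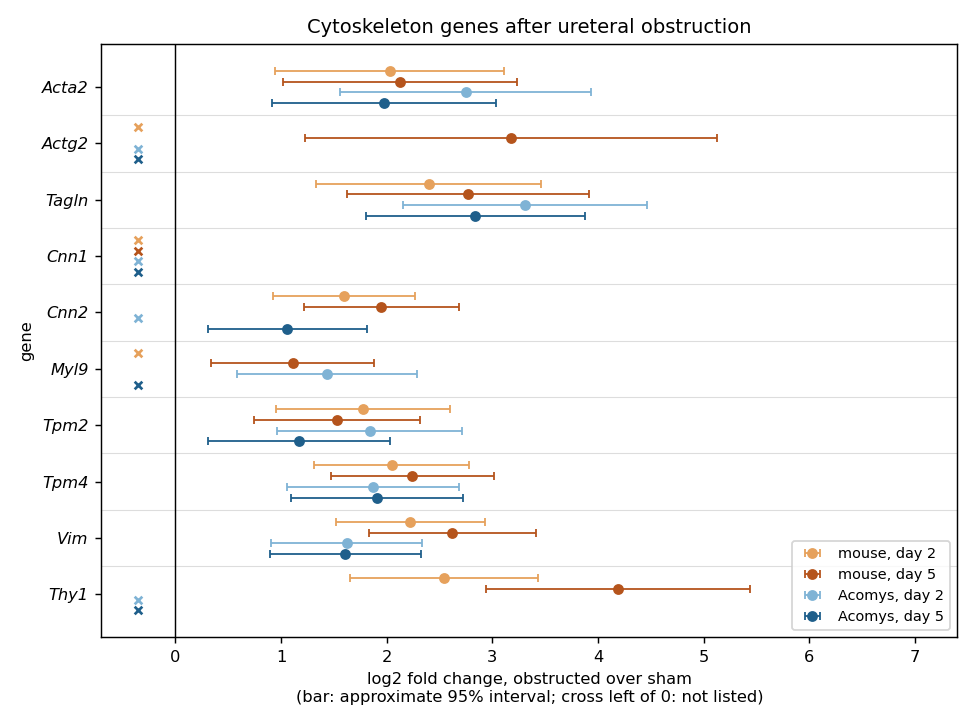
Log2 fold change of obstructed over sham kidney (x axis) for each of the 10 genes (y axis) in the 4 comparisons, with points from the authors' tables and bars showing an approximate 95% interval rebuilt from the fold change and FDR; a cross left of 0 marks a gene that is not listed. All 28 points lie right of 0, from 1.06 for Cnn2 in Acomys on day 5 to 4.19 for Thy1 in mouse on day 5.

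The promoters of 3 members are shown because they carried a CArG box or a near match. A CArG box was read as CC, then 6 bases of A or T, then GG, which reads the same class of letters on both strands, and a near match as the same frame with 1 G or C among the middle 6. Sequences run 5′ to 3′ over the 250 bases before the RefSeq gene start (mouse GRCm38.p6), with both kinds of match in capitals. The Acta2 window is chr19:34255374-34255623 on the minus strand, that of Myl9 chr2:156775214-156775463 on the plus strand and that of Cnn2 chr10:79988350-79988599 on the plus strand.
Acta2: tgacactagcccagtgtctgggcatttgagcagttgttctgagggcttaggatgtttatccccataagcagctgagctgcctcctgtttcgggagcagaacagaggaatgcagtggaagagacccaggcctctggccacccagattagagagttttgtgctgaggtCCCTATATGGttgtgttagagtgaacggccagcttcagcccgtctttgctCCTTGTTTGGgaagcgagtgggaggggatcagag
Myl9: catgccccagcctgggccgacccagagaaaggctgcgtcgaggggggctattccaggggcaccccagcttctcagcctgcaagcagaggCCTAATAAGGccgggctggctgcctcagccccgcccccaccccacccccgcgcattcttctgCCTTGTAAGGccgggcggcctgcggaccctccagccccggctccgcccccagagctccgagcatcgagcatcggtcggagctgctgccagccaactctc
Cnn2: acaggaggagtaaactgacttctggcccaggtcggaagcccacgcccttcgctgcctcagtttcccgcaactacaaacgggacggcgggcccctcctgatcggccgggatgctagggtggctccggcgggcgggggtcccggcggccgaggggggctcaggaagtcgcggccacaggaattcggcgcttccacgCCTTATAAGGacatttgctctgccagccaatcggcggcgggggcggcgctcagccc
Acta2 held near matches at -84 to -75 (CCCTATATGG) and -34 to -25 (CCTTGTTTGG), counted from the gene start. Myl9 held a full CArG box at -161 to -152 (CCTAATAAGG) and a near match at -99 to -90 (CCTTGTAAGG). In Cnn2 the box stood at -56 to -47 (CCTTATAAGG). Full boxes occurred in 2 of the 7 member promoters in the table (Myl9 and Cnn2) and in 1.47% of 32851 mouse promoters of the same length, and near matches in 2 of 7 (Acta2 and Myl9) and in 7.24%. The windows of Cnn1, Tpm2, Tpm4 and Vim held neither. These are matches of letters in mouse sequence, not measured binding, and no Acomys promoter was read.

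Acta2 encodes the smooth muscle alpha-actin that stains myofibroblasts, and it rose in all 4 comparisons. The authors' deposited tables gave it a log2 fold change of 2.03 (4.08-fold, FDR 0.00128) on mouse day 2 and 2.13 (4.37-fold, FDR 0.000598) on mouse day 5. For Acomys the authors' deposited tables held 2.75 (6.71-fold, FDR 0.000256) on day 2 and 1.97 (3.93-fold, FDR 0.00333) on day 5. Its highest point was thus Acomys on day 2 and its lowest Acomys on day 5, with both mouse values between them. The mean logCPM was 7.05 in mouse and 6.98 in Acomys in the authors' deposited tables.

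Actg2, the gamma-actin of visceral smooth muscle such as the wall of the gut and urinary tract, was listed in 1 comparison. On mouse day 5 it stood at 3.18 (9.04-fold, FDR 0.00380) in the authors' deposited table, at a mean logCPM of only 1.76. Its approximate 95% interval, 1.23 to 5.12, was the widest of the set. Absence from the day 2 table is not a measured difference between the days. The smallest rise listed there within 0.5 logCPM of its expression was 0.95, the minimum over 279 rises. A gene with an interval as wide as that of Actg2 could need a much larger rise to be listed, so 0.95 does not bound its day 2 change. Beta-actin, Actb, the actin of most non-muscle cells, rose in mouse by 0.98 (FDR 0.0102) on day 2 and 0.97 (FDR 0.00774) on day 5 in the authors' deposited tables. Both values are below those of Acta2 on the same days, a difference that was not tested.

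Tagln encodes transgelin (SM22), an actin-binding protein of smooth muscle that is among the earliest to appear as these cells differentiate. In mouse it rose by 2.40 (5.26-fold, FDR 8.80e-05) on day 2 and 2.77 (6.82-fold, FDR 1.64e-05) on day 5 in the authors' deposited tables. In Acomys it was the steepest member, at 3.31 (9.91-fold, FDR 6.75e-06) on day 2 and 2.84 (7.15-fold, FDR 2.44e-05) on day 5 in the authors' deposited tables. The paralogue Tagln2, which is found in many non-muscle cells, rose as well, by 1.83 (day 2) and 1.62 (day 5) in mouse and by 1.49 and 1.61 on the same days in Acomys in the authors' deposited tables.

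Calponins bind actin and damp the myosin motor. Cnn1, the calponin of mature smooth muscle, was not listed in any comparison. Cnn2, the form found in fibroblasts, macrophages and other motile cells, rose in mouse by 1.59 (3.02-fold, FDR 3.74e-05) on day 2 and 1.95 (3.86-fold, FDR 2.95e-06) on day 5 in the authors' deposited tables. Acomys had it on day 5 only, at 1.06 (2.09-fold, FDR 0.0298) in the authors' deposited table. That was near the smallest rise the table could hold, since only 1.07% of its listed rises were smaller. On Acomys day 2 Cnn2 was not listed. The smallest of the 94 rises listed there within 0.5 logCPM of its expression was 0.99, and their 5th percentile was 1.08. The day 5 value of 1.06 lies between the 2. Whether a rise of that size would have been listed also depends on the spread of the gene, so its absence is not a measured difference between the days.

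Myl9 encodes the regulatory light chain whose phosphorylation starts smooth muscle contraction. It was listed once in each species, in mouse on day 5 at 1.11 (2.16-fold, FDR 0.0110) and in Acomys on day 2 at 1.43 (2.70-fold, FDR 0.00974) in the authors' deposited tables. The smallest rises listed within 0.5 logCPM of its expression were 0.75 on mouse day 2 and 1.04 on Acomys day 5. These minima do not bound its change, so its absence on those days is not a measured difference between the days. Another Acomys locus, number 542893, carries the protein name MYL9 but no gene symbol and so is not a member. In the authors' deposited tables that locus rose on both days, by 2.58 (FDR 0.00207) on day 2 and 1.91 (FDR 0.0174) on day 5, at a mean logCPM of 2.00 against 4.09 for the locus with the symbol. Both were named from the same orangutan entry, and how reads were divided between them, or among light-chain paralogues, is not stated in the labels or headers, so the Acomys value of Myl9 is uncertain. In mouse, Myl12a, a light-chain paralogue of non-muscle cells, rose by 1.17 and 1.15 on days 2 and 5 in the authors' deposited tables.

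Tropomyosins are coiled-coil proteins that run along the filament and set which motors and binding proteins reach it. Tpm4, a form of non-muscle stress fibres, varied least of the 5 members listed in all tables: the authors' deposited tables held 2.05 (4.13-fold, FDR 2.01e-06) and 2.24 (4.73-fold, FDR 5.30e-07) for mouse days 2 and 5, and 1.87 (3.65-fold, FDR 0.000260) and 1.91 (3.76-fold, FDR 0.000255) for the same days of Acomys. Tpm2, the beta form of muscle, stood at 1.78 (3.42-fold, FDR 0.000195) and 1.53 (2.89-fold, FDR 0.000523) in mouse in the authors' deposited tables. In Acomys it went from 1.84 (3.58-fold, FDR 0.000896) on day 2 to 1.17 (2.26-fold, FDR 0.0356) on day 5 in the authors' deposited tables, the weakest FDR of any member. Of the other family genes, Tpm1 rose in all 4 comparisons, by 1.40 and 1.83 on mouse days 2 and 5 and 1.33 and 1.49 on Acomys days 2 and 5, and Tpm3 in mouse alone was listed, by 0.88 and 0.84, in the authors' deposited tables. Rises of the Tpm3 size lie below the smallest listed change in Acomys, so its absence there says little.

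Vim encodes vimentin, the intermediate filament of mesenchymal cells, which injured tubule cells and macrophages also make. Its place by FDR was 39 of 3915 on mouse day 2 and 24 of 5365 on mouse day 5, with log2 fold changes of 2.22 (4.67-fold, FDR 1.61e-07) on day 2 and 2.62 (6.16-fold, FDR 3.24e-08) on day 5 in the authors' deposited tables. The Acomys rise was 1.62 (3.08-fold, FDR 0.000319) on day 2 and 1.61 (3.05-fold, FDR 0.000385) on day 5 in the authors' deposited tables. Both Acomys values were thus lower than both mouse values. Macrophage markers moved with it: 5 of the 6 fixed rose on each day in mouse, 4 on day 2 and 6 on day 5 in Acomys, and none fell. Among all listed entries, 58.3% and 60.9% were rises on mouse days 2 and 5 and 89.9% and 78.6% on Acomys days 2 and 5. The part of macrophages in the Vim result was not tested.

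Thy1 encodes CD90, a surface glycoprotein of fibroblasts, pericytes, neurons and, in mice, T cells. It was listed in mouse alone, where it rose by 2.54 (5.83-fold, FDR 1.32e-06) on day 2 and 4.19 (18.2-fold, FDR 2.61e-08) on day 5 in the authors' deposited tables. The day 5 value was the largest of the set, and 94.9% of the rises listed on that day were smaller. T cell markers rose beside it in mouse, 2 of 7 on day 2 and 5 of 7 on day 5 with none fallen, among them Lck, a T cell kinase gene, at 1.79 and 2.58 in the authors' deposited tables. Fibroblast and pericyte markers did so too, 7 of 14 on day 2 and 13 of 14 on day 5, with Pdgfrb, the PDGF receptor gene of pericytes, at 1.20 and 2.12 in the authors' deposited tables. Neuron markers were listed in mouse alone, 2 of 5 risen on each day, with the tubulin gene Tubb3 at 3.44 and 3.46 and the neurofilament gene Nefm at 2.10 and 1.64 in the authors' deposited tables. The part of these cell types in the Thy1 rise was not tested. Rises made up 58.3% and 60.9% of all listed mouse entries on days 2 and 5. In Acomys, T cell markers rose in 1 and 3 of 7 cases, fibroblast and pericyte markers in 8 and 9 of 14 and neuron markers in 0 of 5 on days 2 and 5. Of all Acomys entries listed on those days, 89.9% and 78.6% were rises. There no locus with the symbol or the protein name THY1 was listed, which does not show that the gene was unchanged.

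**Figure D2:**
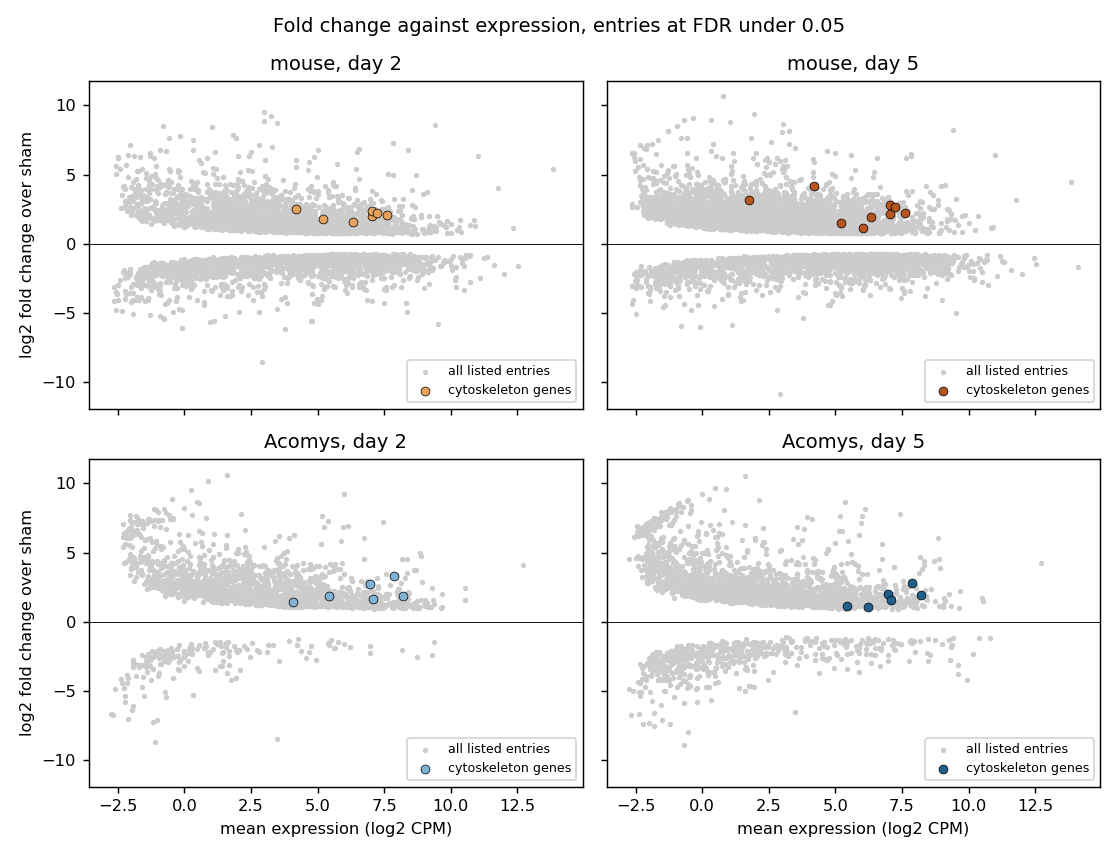
Log2 fold change over sham (y axis) against mean expression in log2 CPM (x axis) for every entry listed in each comparison (grey). The listed genes of the set, Thy1 included, are in colour under the label cytoskeleton genes. The members lie between 1.76 and 8.21 log2 CPM and inside the cloud of rises, with Thy1 at 4.19 in mouse on day 5 and Tagln at 3.31 in Acomys on day 2 the highest members expressed above 4 log2 CPM.

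Set side by side, fold changes were mostly higher on day 5 than on day 2 in mouse and mostly lower in Acomys. Of the 7 members listed on both days in mouse, 6 had a higher fold change on day 5 and 1, Tpm2, a lower one, with a median day 5 minus day 2 difference of 0.35. Thy1 moved most, by 1.64, followed by Vim at 0.40, Tagln at 0.37 and Cnn2 at 0.35. Of the 5 listed on both days in Acomys, 4 were lower on day 5 and 1, Tpm4, was higher by 0.04, with a median of -0.47. The difference was -0.77 for Acta2, -0.67 for Tpm2, -0.47 for Tagln and -0.01 for Vim on the log2 scale. Among all entries risen on both days, 64.8% of 2006 in mouse and 56.7% of 1220 in Acomys were higher on day 5, with medians of 0.22 and 0.07. Both days of a species were set against the same 3 sham libraries, and the differences between days were not tested.

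Between species, the difference of 2 log2 fold changes was tested with errors rebuilt from each fold change and FDR under a normal distribution, adjusted over all symbols listed in both species. On day 2, 0 of the 5 members listed in both differed (5.08% of 729 symbols were called), and 0 had an unadjusted p under 0.05. On day 5, 0 of 6 differed (5.14% of 1011 symbols were called), again with 0 at an unadjusted p under 0.05. Members listed in only 1 species could not enter the test: Cnn2, Myl9 and Thy1 on day 2, and Actg2, Myl9 and Thy1 on day 5. The counts of 0 thus cover only members already selected for a rise in both species, which favours finding no difference. On day 2 Acomys minus mouse was 0.91 for Tagln (95% interval -0.65 to 2.48, adjusted p = 0.778), 0.72 for Acta2 (-0.89 to 2.33, adjusted p = 0.874) and -0.60 for Vim (-1.60 to 0.40, adjusted p = 0.759). On day 5 it was -1.01 for Vim (95% interval -2.07 to 0.05, adjusted p = 0.427), -0.89 for Cnn2 (-1.94 to 0.16, adjusted p = 0.529), -0.15 for Acta2 (-1.68 to 1.38, adjusted p = 0.976) and 0.07 for Tagln (-1.47 to 1.61, adjusted p = 0.982). The remaining pairs, Tpm2 and Tpm4 on both days, differed by -0.36 to 0.06. These intervals are wide enough to hold a difference of more than 1 in each direction for Acta2 on day 5, so the species are not shown to respond alike. The number of degrees of freedom behind the authors' FDRs is not stated in the labels or headers, and the calls turn on it: rebuilt with a t distribution of 6 degrees of freedom, 2 of 5 members differed on day 2 (Tagln, adjusted p = 0.00256, higher in Acomys, and Vim, adjusted p = 0.00173, lower) and 2 of 6 on day 5 (Vim, adjusted p = 3.78e-05, and Cnn2, adjusted p = 0.0204, both lower in Acomys). Under that setting the difference itself was tested against a t distribution with the degrees of freedom of the 2 species added, 6 from each. It called 35.0% and 34.8% of all shared symbols. Over all shared symbols the median of Acomys minus mouse was 0.20 on day 2 and -0.18 on day 5. For the members it was 0.06 and -0.35 on the same days. Vim was lower in Acomys on both days, and whether that exceeds the spread between libraries cannot be settled from these tables.

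**Figure D3:**
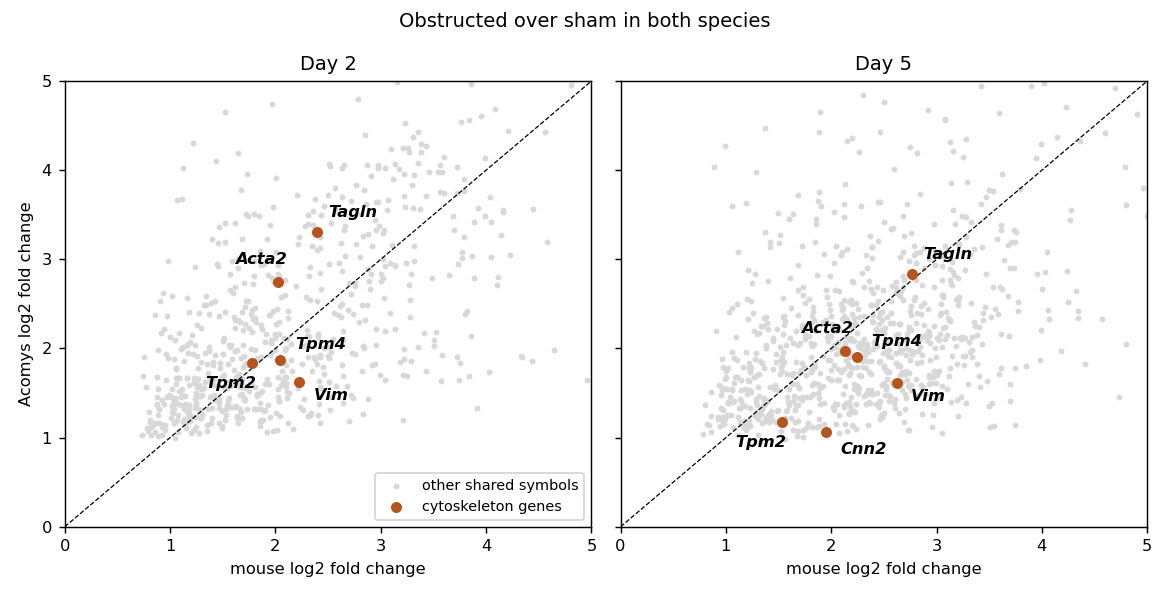
Log2 fold change in Acomys (y axis) against that in mouse (x axis) for symbols listed in both species on day 2 and day 5, with the cytoskeleton genes in colour and a dashed line of equality; the axes run from 0 to 5 and leave out 71 of 729 and 158 of 1011 symbols. Acta2 and Tagln lie above the line on day 2 and near it on day 5, while Vim lies below it on both days.

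Related genes were read from fixed lists, matched by Entrez ID, and described by counts. For every list the background is the same: rises made up 58.3% and 60.9% of all listed entries on mouse days 2 and 5. On Acomys days 2 and 5 they made up 89.9% and 78.6%. The share of all measured genes that were listed is unknown here too. In the list of other smooth muscle contractile genes, 8 of 29 rose on each day in mouse with 1 fallen (Fhl1, at -1.43 and -1.33 in the authors' deposited tables), and 4 and 6 of 29 rose in Acomys with none fallen. The medians of the listed genes were 1.30 and 1.46 in mouse and 1.46 and 1.52 in Acomys, beside table medians of 1.03, 1.14, 1.99 and 1.95. Over rises alone the table medians were 1.70, 1.89, 2.15 and 2.27, so the list lay below the median rise in each comparison. Des, which encodes the muscle intermediate filament desmin, rose by 1.44 and 1.74 on mouse days 2 and 5 and by 2.95 and 2.69 on Acomys days 2 and 5 in the authors' deposited tables. Of the 6 defining genes of mature smooth muscle, Des and, on mouse day 2, Smtn (smoothelin, 0.89 in the authors' deposited table) were listed, while the heavy chain gene Myh11, Lmod1, Synpo2 and Myocd were listed in no comparison. Skeletal muscle markers were listed in none either, 0 of 7.

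In the list of the general actin cytoskeleton 20 of 35 rose on each day in mouse (medians 1.66 and 2.19), with none fallen. In Acomys 13 and 15 of 35 rose (medians 1.49 and 1.57), again with none fallen. The table medians were 1.03 and 1.14 in mouse and 1.99 and 1.95 in Acomys, so the list lay below that background in Acomys. Over rises alone the mouse table medians were 1.70 and 1.89. The list lay slightly below that on mouse day 2 and above it on mouse day 5. Rises made up 89.9% and 78.6% of listed Acomys entries on days 2 and 5, so the lack of falls there is close to background. The steepest on mouse day 2 were Capg, a filament-capping protein gene, at 3.04, Pdlim7 at 2.99 and Tmsb10, a monomer-binding thymosin gene, at 2.76 in the authors' deposited table. On mouse day 5 Flnc, a filamin crosslinker gene of muscle, led at 3.46 in the authors' deposited table. On Acomys day 2 Capg stood at 1.65, Pdlim7 at 1.70 and Tmsb10 at 1.94 in the authors' deposited table. These 3 were picked for their mouse values. The species test under the normal distribution called none of them on that day (adjusted p = 0.289, 0.406 and 0.766 in that order). Their result with 6 degrees of freedom, where 35.0% of shared symbols were called on day 2, is not given here. A species difference in these 3 is therefore neither shown nor excluded. Intermediate filament genes rose in 6 of 11 cases on each day in mouse and in 3 and 4 of 11 in Acomys, where the locus with the symbol Lmnb1 carries the protein name LMNA, with Prph, peripherin, at 3.47 in mouse and 3.70 in Acomys on day 5 in the authors' deposited tables, at mean logCPM values of -0.13 and -1.04. Focal adhesion genes were mostly not listed, with 4 and 6 of 19 risen in mouse and 3 and 3 in Acomys and none fallen.

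The list of SRF and MRTF regulation holds the coactivators that carry actin signals to SRF and known targets. In mouse 11 and 13 of its 21 genes rose on days 2 and 5 with 1 fallen. In Acomys 7 and 7 rose with none fallen, where 89.9% and 78.6% of listed entries were rises, so the lack of falls there is close to background. Medians of the listed genes were 1.16 and 1.41 in mouse and 1.78 and 1.87 in Acomys, beside table medians of 1.03, 1.14, 1.99 and 1.95. Over rises alone the table medians were 1.70, 1.89, 2.15 and 2.27, so this list also lay below the median rise in each comparison. Ankrd1, a muscle ankyrin repeat gene, led at 4.04 and 3.18 in mouse and 3.70 and 3.40 in Acomys in the authors' deposited tables, where its Acomys mean logCPM was 0.00376. Ccn1, listed under its older symbol Cyr61, stood at 3.58 and 2.55 in mouse and 1.93 and 1.98 in Acomys in the authors' deposited tables. The coactivator gene Mrtfa, listed as Mkl1, rose in mouse by 0.98 and 1.08 and Csrp2, a smooth muscle LIM protein gene, fell by 0.92 and 0.93 in the authors' deposited tables. Srf and Myocd themselves were not listed. In the list of myofibroblast induction and fibroblast genes 19 and 23 of 26 rose in mouse (medians 2.42 and 2.66). In Acomys 14 and 16 rose (medians 2.26 and 2.44), and none fell in either species. Rises made up 58.3% and 60.9% of listed mouse entries and 89.9% and 78.6% of listed Acomys entries. The list medians lay above the table medians of rises given for the previous list, by little in Acomys. The shares of the lists were not tested against each other.

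**Figure D4:**
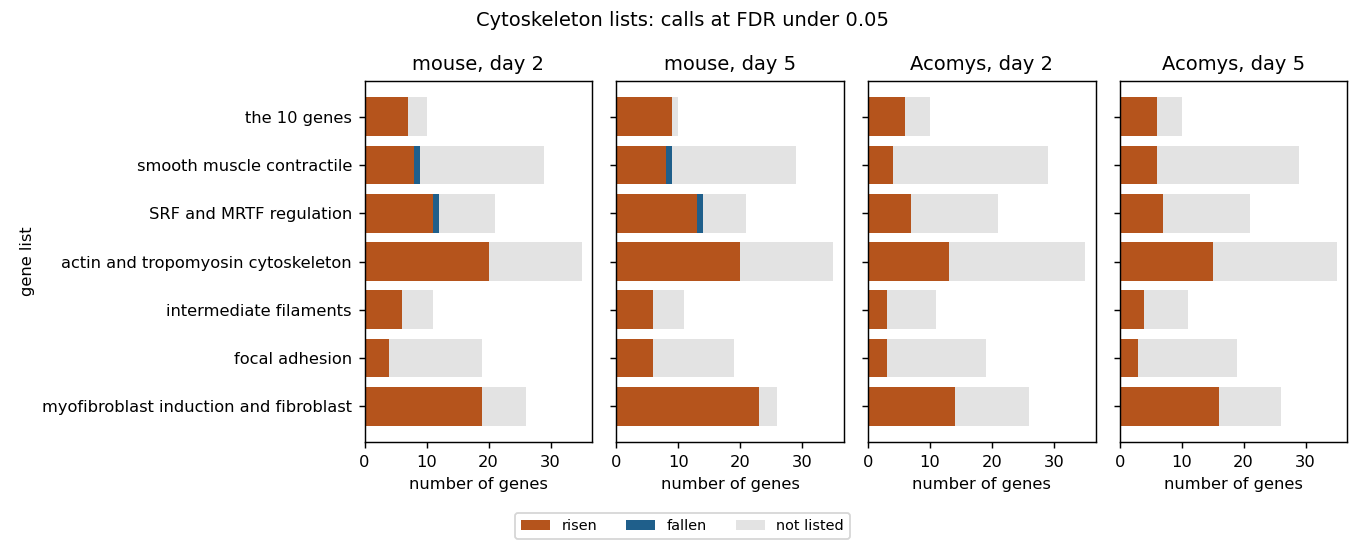
Number of genes (x axis) risen, fallen and not listed at FDR under 0.05 in the 10 genes of the set, Thy1 included, and 6 related lists (y axis) for each comparison. Risen genes number 23 of 26 for myofibroblast induction on mouse day 5 and 4 of 29 for smooth muscle contractile genes on Acomys day 2, and 1 gene fell in each of 2 lists, in mouse alone.

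The genes whose 4 fold changes lay nearest to those of Acta2, by Euclidean distance over the 4 comparisons, were Trpv2 (0.41), Rcn3 (0.49), Gprin1 (0.50), Ube2t (0.52) and C330027C09Rik (0.56), among 580 symbols listed in all 4 tables. The nearest member, Tpm4, was only 48th in that order at 0.89, and Tagln, Vim and Tpm2 followed at 1.27, 1.30 and 1.37. The 4 values share the sham libraries within each species, so this likeness is a description of the fold changes.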

How the data were processed

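Kidney RNA was sequenced in 18 libraries, 3 in each of 6 groups, grouped by species and treatment in the labels. The submitters' processing notes name Salmon, edgeR and the mouse build mm9; no version, setting or Acomys reference is stated in the labels or headers. The authors deposited 4 tables holding, per the file headers, a log fold change (read as log2), logCPM (log2 of mean CPM) and FDR (an adjusted p-value); every deposited entry is under 0.05. Direction comes from the table names. logCPM was identical on both days for all 3369 mouse and 1319 Acomys entries listed on both. No gene was refitted, and depth per library is unknown.

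Members were matched by symbol, lists by Entrez ID. For the species test, p was FDR times rank over 10000 assumed tests, and the error the fold change over the normal quantile; p-values were adjusted by Benjamini-Hochberg. If the authors' p came from few degrees of freedom, these errors are too large. In the alternative, errors were rebuilt with a t distribution of 6 degrees of freedom in each species. The difference was then tested against a t distribution with both species' degrees of freedom added. Where an Acomys symbol had several loci, the highest logCPM was used. Promoters are from RefSeq (GRCm38.p6); 7 of 10 members matched. Tools were Python 3.11.15, pandas 2.3.3, numpy 2.4.6, scipy 1.17.1 and matplotlib 3.10.9.

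Named genes were all members, family partners, up to 3 highest and 2 lowest per list and the 5 nearest to Acta2; Mrtfa and the genes named as not listed fall outside this rule and were chosen after the tables were seen. Members and lists were chosen with earlier results of these data known.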

Additional observations from a re-analysis of the deposited data

How the results depend on the processing

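The alternatives for the member rises filter or match the same deposited fold changes, so they bear on calls and not on values or directions. At FDR under 0.01 (passed by 73.4%, 78.6%, 54.6% and 47.6% of entries on mouse days 2 and 5 and Acomys days 2 and 5) 3 calls were lost, Myl9 on mouse day 5 and Cnn2 and Tpm2 on Acomys day 5. At FDR under 0.001 (49.5%, 54.1%, 23.9% and 16.0% of entries) 7 were lost, and 3 of 6 members remained on Acomys day 5. A minimum change of 1 (passed by 84.7%, 85.1%, 99.6% and 99.8% of entries), a minimum logCPM of 0 and matching by Entrez ID lost none. With errors rebuilt from a t distribution of 6 degrees of freedom in each species, 2 members differed between species on day 2 and 2 on day 5. The normal distribution gave 0, and no other alternative gave any. Over the alternatives the adjusted p ran from 0.00173 to 0.778 for Vim and from 0.00256 to 0.795 for Tagln on day 2, and on day 5 from 3.78e-05 to 0.427 for Vim and from 0.0204 to 0.529 for Cnn2. No paired analysis was possible because the tables hold no values per library, and for the same reason no library could be left out. Unknown depth leaves unlisted genes unresolved.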

Other observations

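Among Acomys loci named for other proteins of the same families, a second locus of transgelin 2, number 112640, had no gene symbol and rose in the authors' deposited tables by 1.62 (FDR 0.00191) on day 2 and 1.70 (FDR 0.00128) on day 5. The locus with the symbol Tagln2 stood at 1.49 and 1.61 in the authors' deposited tables. Myl4, a light-chain gene of the heart atrium and embryonic muscle, fell by 4.00 in Acomys on day 5 (FDR 0.0480, mean logCPM -0.49) in the authors' deposited table, and was singled out after its value was seen. Of 5 urothelium markers, the uroplakin genes Upk1a and Upk3a fell by 1.72 and 1.84 and the basal keratin gene Krt5 rose by 1.95 on mouse day 2 in the authors' deposited table. On mouse day 5 Krt5 was listed, at 2.39 in the authors' deposited table, and on Acomys day 2 Upk3a, at 1.36 (FDR 0.0492). The Acomys locus that holds the symbol Krt5, and rose by 3.39 and 3.14 in the authors' deposited tables, carries the protein name of another keratin, K2C79, so its identity is uncertain. Endothelial markers were mostly not listed: Kdr fell by 1.16 on mouse day 2 and Cdh5 rose by 0.95 on mouse day 5 in the authors' deposited tables, with 0 of 6 listed in Acomys.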
